A study of Mus musculus with 3 samples.

Results

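The BMP ligands *Bmp2*, *Bmp4*, *Bmp5*, *Bmp6* and *Bmp7* and the secreted BMP antagonists *Grem1*, *Nog*, *Bmper* and *Sostdc1* were taken by name, as 9 of the 31053 genes counted in single cells of the mouse iridocorneal angle and limbus. Each gene had its own pattern over the cell types. *Nog* and *Sostdc1* were high in a smooth muscle cluster, *Sostdc1* was also high in retinal pigment epithelium (RPE), *Grem1* had most of its counts in ciliary epithelium in 2 of the 3 libraries, *Bmper* was highest in keratocyte-like cells and *Bmp4* was highest in RPE and endothelium. In neural crest-specific *Angpt1* knockout eyes, *Nog* and *Sostdc1* were lower in the summed smooth muscle, pericyte and vascular smooth muscle clusters (mural cells). Nearly all counts of both genes in that class lay in the smooth muscle cluster, which had 387 and 499 control cells and 54 knockout cells. With equal cell numbers per label the log2 change shrank from -1.58 to -0.68 for *Nog* and from -2.25 to -1.23 for *Sostdc1*. In the smooth muscle cluster alone *Sostdc1* passed the threshold and *Nog* did not. In endothelium *Bmp4* was higher and *Bmp6* lower. Both endothelial calls were lost with DESeq2 and in male-typed cells, where *Bmp4* had the opposite sign.

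The study used droplet-based single-cell RNA sequencing, in which each molecule carries a unique molecular identifier (UMI), on pooled eyes of 6-week-old mice of a mixed strain background. The controls were 2 libraries of *Angpt1* flox/flox mice, named control replicate 1 and control replicate 2 here, and the knockout was 1 library of *Angpt1* flox/flox;Wnt1Cre+ mice, named *Angpt1*ΔNC. All animals therefore carried the floxed allele, and Wnt1-Cre removes it in cells derived from the neural crest, which leaves *Angpt1* intact in cells of other origin. Each library pooled several animals, so tests between genotypes measured the spread between these libraries and not between animals.

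Bone morphogenetic proteins (BMPs) are secreted ligands of the TGF-β superfamily that bind paired type I and type II serine/threonine kinase receptors, which phosphorylate SMAD1, SMAD5 and SMAD9. These join SMAD4 in the nucleus and switch on target genes such as the *Id* genes and the feedback inhibitors *Smad6* and *Smad7*. Noggin, gremlin and other secreted antagonists bind the ligands before they reach a receptor. In the anterior eye BMP4 is known for its part in development of the drainage structures, and gremlin for opposing BMP4 in the trabecular meshwork (TM), the tissue through which aqueous humor leaves the eye.

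The 3 libraries held 9076, 10160 and 6772 kept cells with a median of 6329.5 to 7444 UMIs a cell, in the order control replicate 1, control replicate 2, *Angpt1*ΔNC, which all values below follow. Kept cells of different libraries shared 13 to 25 barcodes a pair. *Angpt1*, the targeted gene, gave 2911, 3158 and 26 UMIs. The pools differed in sex: *Xist* without any Y-linked transcript was found in 57.0% of *Angpt1*ΔNC cells and in 1 cell of both controls together, so the comparison of genotypes was repeated in male-typed cells. Cells carried 35 labels deposited by the authors, and in all but 1 of the marker lists checked every gene was higher inside its label than outside it. The exception was *Aldh3a1* in keratocytes.

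A level below is the UMIs of a gene per 10,000 UMIs of all cells with a label, with an exact Poisson 95% interval that covers counting error only. Free RNA in droplets gives UMIs in cells that do not express a gene. Levels were therefore set beside those in lymphocytes (cluster 22) and in limbal and corneal epithelium (clusters 4 and 5). Whether these reference cells express a member at a low level was not tested. The clusters were built from the same genes, and differences between labels are therefore a description with no test.

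*Bmp2*, a ligand known for its osteogenic activity (chr2:133552159-133562885, plus strand, GRCm38), was the most widespread ligand. It was found in 1362 of 9076, 1349 of 10160 and 1031 of 6772 kept cells. Its level in the controls was highest in ciliary epithelium (cluster 7), at 1.91, 1.58 and 1.26. Smooth muscle (cluster 19) came next at 1.12, 1.09 and 1.52, above the third label in both controls and above cluster 7 in *Angpt1*ΔNC. From there, TM3, the vascular smooth muscle cluster 21 and the uveal stroma cluster TM9 had control levels that overlapped. The references stood at 0, 0.0954 and 0.115 in lymphocytes and at 0.0956, 0.0984 and 0.149 in limbal and corneal epithelium.

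*Bmp4*, the ligand of anterior segment development (chr14:46383520-46390669, minus strand), was found in RPE (cluster 1) at 2.74, 2.36 and 3.14. The endothelial cluster EC2 stood at 3.38, 1.14 and 2.86, a spread between the controls that covered the RPE level. Schlemm's canal endothelium (SC), the lining of the outflow channel, had 1.56, 1.87 and 3.07 UMIs per 10,000 over 46, 63 and 15 cells. These 3 labels were followed, with a gap, by the corneal stromal cluster 13 at 0.922, 0.691 and 0.368.

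*Bmp6* and *Bmp7* are related ligands with far fewer counts. *Bmp6* (chr13:38345107-38500302, plus strand) was highest in RPE, at 0.567, 0.430 and 0.319, and in the blood endothelial cluster EC3, at 0.492, 0.494 and 0.220, with no separation between these labels. *Bmp7* (chr2:172868012-172940321, minus strand) stood at 0.777, 0.353 and 0.643 in ciliary epithelium and at 0.571, 0.520 and 0.611 in RPE. Both epithelia derive from the neuroepithelium, and *Bmp7* elsewhere exceeded 0.1 in both controls in no label but cluster 18, which the study left unassigned. *Bmp5* (chr9:75775364-75900310, plus strand) gave 25, 42 and 12 UMIs in whole libraries and at most 0.078 per 10,000 in any label of a control, which is too few for a pattern at this depth.

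**Figure D1:**
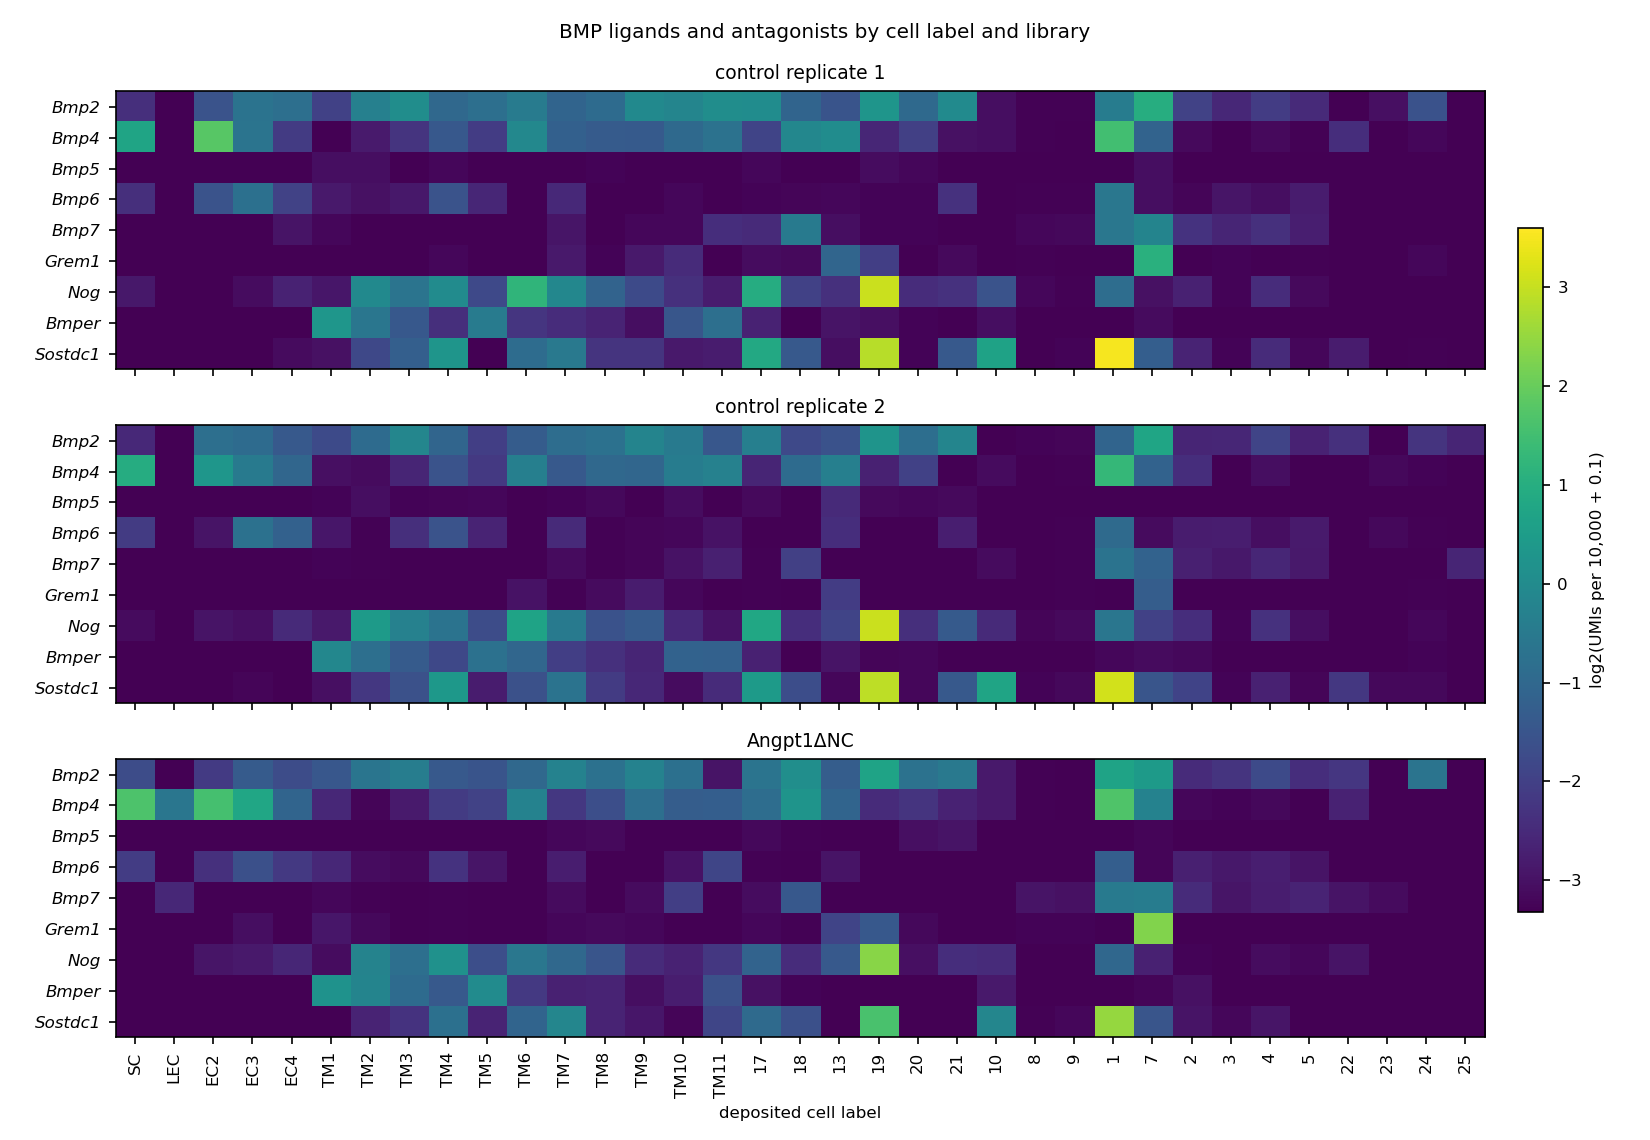
Heat maps of log2(UMIs per 10,000 + 0.1) for the 9 genes (rows) in the 35 deposited cell labels (columns), 1 panel per library. The brightest cells are *Sostdc1* in cluster 1 (11.3 UMIs per 10,000 in control replicate 1) and *Nog* and *Sostdc1* in cluster 19, *Grem1* is bright in cluster 7 alone, and *Bmp5* is dark throughout.

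*Nog* encodes noggin, a high-affinity antagonist of BMP2 and BMP4 (chr11:89300638-89302332, minus strand). It was a gene of cluster 19, the smooth muscle cells, at 8.08, 8.13 and 5.11 UMIs per 10,000. A *Nog* UMI was present in 92.2%, 93.8% and 85.2% of these cells, and in 5.36%, 7.31% and 2.63% of limbal and corneal epithelial cells. The median depth was 5840 to 6315 UMIs in the former cells and 15135 to 17717 in the latter. TM6 (uveal stroma) with 2.23, 1.51 and 0.574 and the stromal cluster 17 with 1.85, 1.65 and 0.360 followed and overlapped each other in the controls. Cluster 19 held 51.8% and 52.7% of all *Nog* UMIs of the controls and 16.0% of those of *Angpt1*ΔNC, where it had 54 cells against 387 and 499.

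*Sostdc1*, a cystine-knot antagonist of both BMP and WNT signalling (chr12:36314139-36318452, plus strand), shared this cluster. It stood at 7.10, 7.37 and 2.93 in cluster 19, but was higher still in RPE, at 11.3, 8.56 and 5.56 over 133, 81 and 17 cells. Glia (cluster 10) with 1.49, 1.54 and 0.801 and cluster 17 with 1.72, 1.26 and 0.427 came next and overlapped in the controls. TM4, one of the trabecular meshwork clusters, came after these at 1.12, 1.18 and 0.491.

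The same cells often held both antagonists. In cluster 19, 252 of 387, 339 of 499 and 25 of 54 cells had a UMI of *Nog* and of *Sostdc1*. In cluster 17, where both are sparser, *Sostdc1* was found in 48.9%, 36.9% and 20.6% of cells with *Nog* and in 13.5%, 17.2% and 8.03% of cells without it. In TM4 the shares were closer, at 38.1%, 47.7% and 23.1% of cells with *Nog* and 31.5%, 38.1% and 17.4% of those without. In TM6 they were 15.9%, 0% and 12.5% with *Nog* and 10.3%, 6.25% and 9.52% without, so the libraries did not go the same way. In glia no cell held both in any library. Deeper cells detect more of either gene, and the part of depth in this overlap was not tested. Across the 34 labels with enough control cells, log2 levels of *Nog* and *Sostdc1* had a Pearson r of 0.766, as a description over labels that share libraries.

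**Figure D2:**
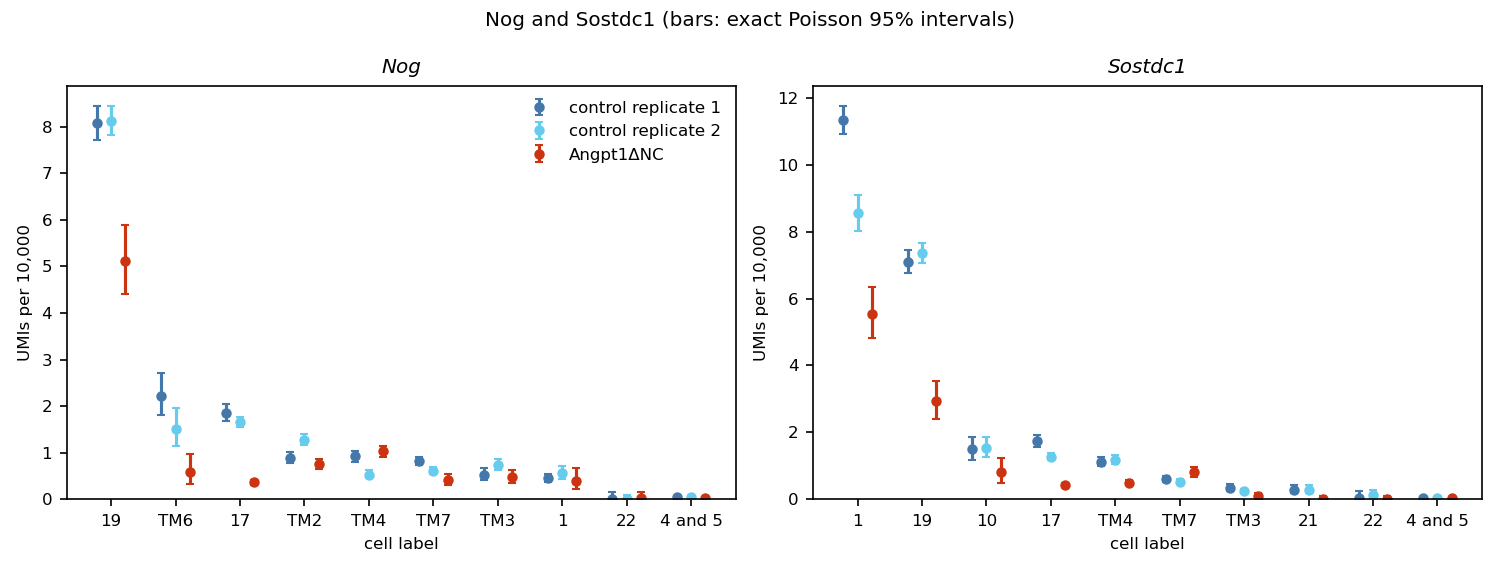
*Nog* (left) and *Sostdc1* (right) in UMIs per 10,000 by cell label; points are single libraries and bars exact Poisson 95% intervals. *Nog* in cluster 19 stood at 8.08 and 8.13 in the controls and 5.11 in *Angpt1*ΔNC, and in clusters 19 and 17 the *Angpt1*ΔNC point lies below both controls for both genes.

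*Grem1* encodes gremlin, a DAN-family antagonist of BMP2 and BMP4 (chr2:113746164-113758646, minus strand). It was highest in ciliary epithelium, and there in few cells. Cluster 7 gave 508, 22 and 785 UMIs, or 2.00, 0.310 and 4.81 per 10,000, and held 80.6%, 40.7% and 95.2% of the *Grem1* UMIs of each library. The intervals of the 2 controls, 1.83 to 2.19 and 0.195 to 0.470, did not overlap, and *Angpt1*ΔNC lay above both. A *Grem1* UMI was found in 84 of 316, 10 of 107 and 61 of 139 cells. Cells with at least 10 *Grem1* UMIs numbered 17, 0 and 26, and in the libraries that had them they held 65.4% and 85.2% of the UMIs. The next labels, corneal stromal cluster 13 at 0.375, 0.136 and 0.170 and cluster 19 at 0.144, 0 and 0.272, were far lower. *Grem1* was sparse in the TM clusters, with at most 0.079 in a control.

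*Bmper* encodes crossveinless-2, a chordin-like protein that binds BMPs outside the cell and can restrain or promote their signalling (chr9:23223076-23485200, plus strand). It was above both references in TM1, TM2, TM3, TM5, TM10 and TM11, but not in the other TM clusters or in any mural or endothelial label. Its level was highest in the keratocyte-like TM1, at 1.15, 0.829 and 1.06. The meshwork cluster TM5 with 0.632, 0.503 and 0.905 and the corneal endothelium TM2 with 0.553, 0.480 and 0.765 overlapped each other in the controls. TM11 (0.472, 0.347, 0.231) and the *Cd34*+ stroma TM10 (0.262, 0.349, 0.0455) came after them.

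By label, RPE was the label with most of these genes above both free RNA references: *Bmp2*, *Bmp4*, *Bmp6*, *Bmp7*, *Nog* and *Sostdc1*. TM4 had 4, with *Bmp2*, *Bmp6*, *Nog* and *Sostdc1*. Smooth muscle (*Bmp2*, *Nog*, *Sostdc1*), ciliary epithelium (*Bmp2*, *Bmp7*, *Grem1*) and EC3 (*Bmp2*, *Bmp4*, *Bmp6*) had 3 each. No member passed both references in EC4, melanocytes (clusters 8 and 9), the epithelial clusters 2 to 5 or the leukocyte clusters 22 to 25. Clusters 4, 5 and 22 make up the references, so this comparison says nothing about them. Lymphatic endothelium had 3, 1 and 12 cells, too few for a level.

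**Figure D3:**
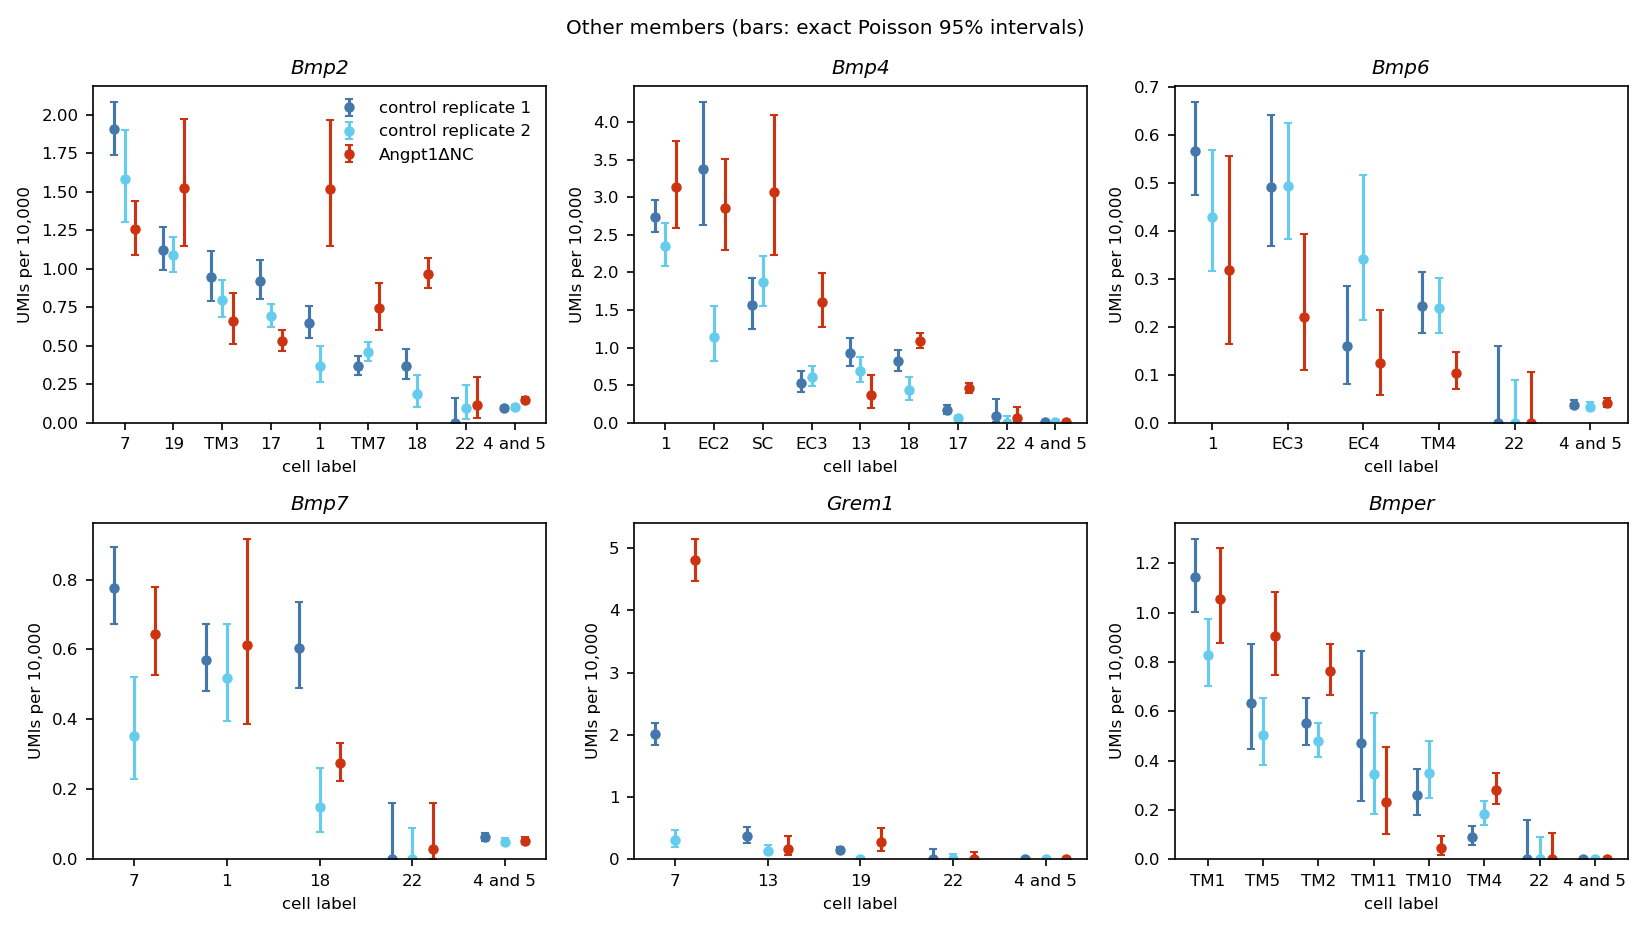
Levels of *Bmp2*, *Bmp4*, *Bmp6*, *Bmp7*, *Grem1* and *Bmper* in UMIs per 10,000 by cell label, with the reference labels 22 and 4 and 5 at the right of each panel; points are single libraries and bars exact Poisson 95% intervals. *Grem1* in cluster 7 is spread from 0.310 to 4.81, and *Bmp4* in EC3 and SC is higher in *Angpt1*ΔNC than in both controls.

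Among all genes, those whose log2 levels over the 34 labels ran most closely with a member were named by Pearson r, ranked over 10767 genes (10768 for *Bmp5*). For *Nog* these were *Fgfr3* (0.90), *Dner* (0.89) and *Rtn4rl1* (0.85), and for *Sostdc1* *Itgb8* (0.80), *Zfp385b* (0.80) and *Dlg3* (0.79). *Grem1* ran with *Guca1b* (0.89), *Rab3c* (0.88) and *Zic1* (0.87), and *Bmper* with *Rpl39l* (0.92), *Dpep1* (0.88) and *Mme* (0.87). Among the ligands, *Bmp2* ran with *Tsc22d1*, *Map1a* and *Zfp503* (each 0.77), *Bmp4* with *Ramp2* (0.80), *Hid1* (0.70) and *Amacr* (0.68), and *Bmp6* with *Endou* (0.79), *Adipor1* (0.76) and *Gchfr* (0.75). *Bmp7* ran with *Plk5* (0.85), *Slc6a13* (0.83) and *Aldoc* (0.80). For *Bmp5*, which is close to 0 everywhere, the leading genes were *Ptx4* (0.77), *Prok2* (0.75) and *C1qtnf3* (0.74).

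To ask how loss of neural crest *Angpt1* moved these genes, UMIs were summed per library in 6 cell classes and tested with edgeR's quasi-likelihood F-test over all genes of the class. Of 36 pairs of member and class with enough counts, 6 passed an adjusted p of 0.05: 5 were lower and 1 higher in *Angpt1*ΔNC. Over all tested genes the share called ran from 0.288% in cluster 17 to 16.4% in mural cells. The 6 called pairs were *Nog* and *Sostdc1* in mural cells, *Nog* in cluster 17, *Sostdc1* in the TM clusters, and *Bmp4* and *Bmp6* in endothelium. With 1 knockout library, that library was assumed to vary as the controls do.

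**Figure D4:**
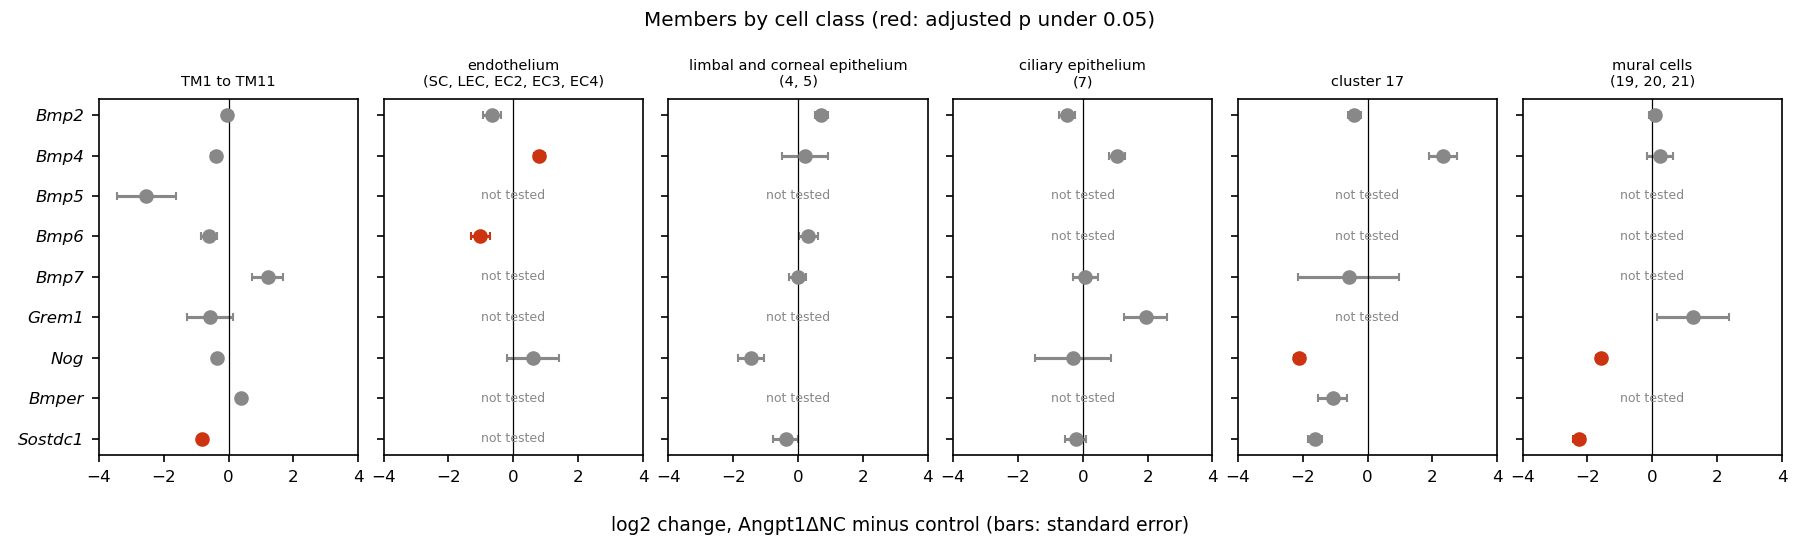
log2 change (*Angpt1*ΔNC minus control) of each gene in 6 cell classes, with standard errors; red points have an adjusted p under 0.05 and genes with too few counts are marked as not tested. The red points are *Sostdc1* in TM1 to TM11 (-0.81), *Bmp4* (0.79) and *Bmp6* (-1.02) in endothelium, *Nog* in cluster 17 (-2.10), and *Nog* (-1.58) and *Sostdc1* (-2.25) in mural cells.

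In mural cells, here the smooth muscle, pericyte and vascular smooth muscle clusters 19, 20 and 21, both antagonists were lower. *Nog* stood at 3.69, 4.21 and 1.15 UMIs per 10,000 and *Sostdc1* at 3.25, 3.79 and 0.645. For both genes the *Angpt1*ΔNC library lay far below the controls, which were close to each other. The log2 change was -1.58 (SE 0.16) for *Nog* (edgeR adjusted p = 5.09e-06) and -2.25 (SE 0.18) for *Sostdc1* (edgeR adjusted p = 3.10e-07). They were 2 of 5 members tested, in a class in which 16.4% of all tested genes were called. *Bmp2*, *Bmp4* and *Grem1* were not called, and *Bmp5*, *Bmp6*, *Bmp7* and *Bmper* were not tested.

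The class sums weight each label by its cells, and cluster 19 had few in *Angpt1*ΔNC. With every library drawn down to the same number of cells per label, the change was -0.68 for *Nog* (edgeR adjusted p = 0.00627, the highest of 5 alternatives) and -1.23 for *Sostdc1*. Within cluster 19 alone, where 0.966% of genes were called, *Sostdc1* was lower, with a log2 change of -1.26 (SE 0.17, edgeR adjusted p = 0.00419), and *Nog* at -0.63 (SE 0.15) missed the threshold (edgeR adjusted p = 0.0903). Of the 54 *Angpt1*ΔNC cells in this cluster 51 were *Xist*-typed and 2 male-typed, so genotype and sex cannot be told apart there. The summed smooth muscle list (*Acta2*, *Myh11*, *Tagln*, *Cnn1*) in cluster 19 was 317, 289 and 270 per 10,000, while the pericyte marker *Rgs5* was 6.44, 6.37 and 0.625; their part in the result was not tested.

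In vascular smooth muscle alone (cluster 21), with 8.21% of genes called, *Sostdc1* gave 23, 22 and 0 UMIs and was called (edgeR adjusted p = 0.00224). The control UMIs lay in 3 of 188 and 2 of 174 cells, and *Angpt1*ΔNC had 69 cells. With so few positive cells the counts give no minimum fold. The pericytes of cluster 20 had neither gene above both references.

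The stromal cluster 17, with 466, 924 and 892 cells, had the most negative fitted change of *Nog* among the 6 classes. *Nog* stood at 1.85, 1.65 and 0.360 UMIs per 10,000 and was present in 141, 290 and 107 of these cells. The change was -2.10 (SE 0.17, edgeR adjusted p = 0.0217), and *Nog* was 1 of 6 members called where 0.288% of all genes were. *Sostdc1* had a log2 change of -1.62 (SE 0.23) and *Bmp4*, at 0.166, 0.0638 and 0.457 UMIs per 10,000, one of 2.33 (SE 0.43), without passing (edgeR adjusted p = 0.0771 and 0.1001).

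The call of *Nog* in cluster 17 was lost with RLE size factors (edgeR adjusted p = 0.0713) and without the low-count filter, over a range of 3.61e-09 to 0.111. Its direction held in all 4 alternatives with a test. In male-typed cells alone *Nog* changed by -1.91 and *Sostdc1* by -2.11, and both were called. *Bmp4* was called higher in these cells as well, and DESeq2 called the same 3 genes. Within the *Angpt1*ΔNC library, *Nog* was 0.381 in male-typed and 0.337 in *Xist*-typed cells of cluster 17. Smooth muscle markers moved the same way: their sum was 46.1, 25.1 and 17.5 per 10,000 in this cluster. Their part in the result was not tested.

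In the TM clusters all 9 members had enough counts, and *Sostdc1* alone was called, against 8.97% of all genes. Its level over TM1 to TM11 was 0.366, 0.333 and 0.199, a log2 change of -0.81 (SE 0.15, edgeR adjusted p = 0.0126). DESeq2 put it just above the threshold (adjusted p = 0.0550, the highest of 5 alternatives, from 6.60e-06). *Bmper* had a change of 0.39 and *Nog* one of -0.35, neither called (edgeR adjusted p = 0.111 and 0.162).

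The sum over TM clusters covered opposite values in single clusters. *Sostdc1* was lower in TM4, at -1.20 on the log2 scale (SE 0.21, edgeR adjusted p = 0.00187, 6.52% of genes called) and in TM3, at -1.42 (edgeR adjusted p = 0.0288, 7.03% called), while in TM7 it stood at 0.595, 0.517 and 0.804 and had a change of 0.54, not called. *Bmp6* was also lower in TM4, with 0.244, 0.239 and 0.103 UMIs per 10,000 (-1.19, edgeR adjusted p = 0.0266). The TM4 marker list (*Myoc*, *Chil1*, *Chad*, *Nell2*) summed to 132, 136 and 60.8 per 10,000, lowest in *Angpt1*ΔNC, and their part in the result was not tested.

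In the *Cd34*+ stroma TM10, *Bmper* was lower. It gave 33, 38 and 7 UMIs (0.262, 0.349 and 0.0455 per 10,000), a log2 change of -2.67 (SE 0.49, edgeR adjusted p = 7.30e-06), with 11.6% of genes called in TM10. This ran against *Bmper* over all TM clusters, where the value was positive. *Bmp7* in TM10 was 0.00793, 0.0275 and 0.143 and was called higher (3.04, edgeR adjusted p = 0.0116) on 1, 3 and 22 UMIs. *Kera*, a keratocyte gene, stood at 1.65, 1.40 and 0.136 in TM10, and its part was not tested. In the controls *Bmp7* in TM10 was not above both free RNA references, and neither were *Nog* in TM9 and *Bmp4* in TM7, given next. In TM9, *Nog* was lower, at 0.195, 0.299 and 0.0807 (-1.54, edgeR adjusted p = 0.00266, 15.1% of genes called), and in TM7 *Bmp4* was lower, at 0.332, 0.281 and 0.117 (-1.37, edgeR adjusted p = 0.0432, 5.07% called).

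Endothelium does not derive from the neural crest and keeps its own *Angpt1* alleles. There *Bmp4* was higher, at 0.872, 0.898 and 1.37 UMIs per 10,000 (log2 change 0.79, SE 0.17, edgeR adjusted p = 0.000967). *Bmp6* was lower, at 0.293, 0.326 and 0.136 (-1.02, SE 0.30, edgeR adjusted p = 0.0179). Both ligands separated *Angpt1*ΔNC from the controls, and they were 2 of 4 members tested, beside 12.9% of all genes called. *Bmp2* (-0.65) and *Nog* (0.61) were tested and not called.

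By endothelial label, EC3 had the clearest change of *Bmp4*, from 0.529 and 0.603 to 1.60 UMIs per 10,000 (log2 change 1.63, SE 0.25, edgeR adjusted p = 1.41e-05, with 7.3% of genes called). The share of EC3 cells with a *Bmp4* UMI did not separate the genotypes, at 30 of 118, 41 of 118 and 16 of 58 cells, and 1 *Angpt1*ΔNC cell held 23 of its 80 UMIs. *Bmp6* in EC3, on 54, 68 and 11 UMIs, had a log2 change of -1.03 and was not called. EC2 and SC had too few cells to be fitted alone. The endothelial list (*Cdh5*, *Pecam1*, *Kdr*, *Cldn5*) summed to 59.5, 64.5 and 69.5 per 10,000 in EC3, and *Plvap* was 37.9, 37.3 and 19.2.

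In male-typed endothelial cells alone *Bmp4* had the opposite sign: 0.838, 0.838 and 0.594 UMIs per 10,000, a change of -0.31, on 66 *Angpt1*ΔNC cells and 39 UMIs. DESeq2 did not call it either (adjusted p = 0.128), and over 4 alternatives the adjusted p ran from 0.000358 to 0.535. For *Bmp6* the direction held in all 4, with DESeq2 at an adjusted p of 0.535 and male-typed cells at a change of -1.30 (edgeR adjusted p = 0.0542), in a range from 0.0173 to 0.535.

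Ciliary epithelium (cluster 7) had 0 of 6 tested members called by edgeR and 0 by DESeq2, with 2 at an unadjusted p under 0.05, where 0.788% of genes were called. *Grem1* had a log2 change of 1.94 with an SE of 0.66 (edgeR adjusted p = 0.250), and 1.27 or 3.94 when only control replicate 1 or only control replicate 2 was used. Without the low-count filter *Grem1* was called, and the adjusted p ranged from 7.50e-14 to 1.00 over 4 alternatives. *Bmp4* stood at 0.363, 0.353 and 0.741 (1.05, edgeR adjusted p = 0.119). Unlike for *Grem1*, its controls were close to each other. Within *Angpt1*ΔNC, *Grem1* was 5.44 in male-typed and 5.35 in *Xist*-typed cells of cluster 7.

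In limbal and corneal epithelium none of 6 members tested was called by edgeR (2 at an unadjusted p under 0.05, and none by DESeq2), beside 5.72% of genes. Cluster 4, the limbal part, had *Nog* at 0.0845, 0.0967 and 0.0169 (-2.27, edgeR adjusted p = 1.11e-06) and *Bmp6* at 0.0203, 0.0184 and 0.0507 (1.53, edgeR adjusted p = 0.0163), with 11.9% of genes called. Cluster 4 is part of the free RNA reference, so these levels are not read as expression here. How much of them is free RNA was not tested. Over whole libraries *Nog* gave 3676, 4980 and 1173 UMIs and *Bmp6* gave 430, 385 and 206.

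Outside these classes, *Bmp2* was higher in cluster 18, at 0.370, 0.186 and 0.967 (1.80, SE 0.31, edgeR adjusted p = 0.000139, 3.22% of genes called). It was also higher in the monocyte cluster 24, at 0.236, 0.107 and 0.535 (1.73, edgeR adjusted p = 0.00594, 4.48% called), where 1 *Angpt1*ΔNC cell held 26 of 158 UMIs. Over the 29 labels with at least 50 cells in each library, 107 pairs of member and label were tested and 15 were called, 10 lower and 5 higher. That is 14.0% of pairs, where a median of 3.91% of all genes (0 to 15.1%) was called per label. These fits of single labels were added after the data were seen. Besides those in cluster 4, some called genes were not above both free RNA references in the controls. These were *Sostdc1* in TM3 and cluster 21, *Bmp4* in TM7, *Nog* in TM9, *Bmp7* in TM10, and *Bmp2* in clusters 18 and 24. How much of these levels is free RNA was not tested. Pairs were not independent, as the same UMIs of a gene enter a label and its class.

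The receptors of the pathway had labels of their own. Of the receptor genes, *Bmpr2*, the type II receptor, and *Acvrl1* and *Eng*, the endothelial type I receptor and co-receptor, were highest in EC3 by the mean of the controls. EC2 was close, and in *Angpt1*ΔNC *Bmpr2* and *Acvrl1* were higher in EC2 than in EC3. *Bmpr1a* was highest in smooth muscle cluster 19, next to *Nog* and *Sostdc1*, *Acvr1* in EC2 and *Bmpr1b* in TM8. Of 11 receptor and co-receptor genes, *Bmpr1b* was called lower in the TM clusters (-1.82) and in mural cells (-1.62), *Acvr1* higher in endothelium (0.77), *Eng* higher in mural cells (0.95) and *Rgmb* lower in limbal and corneal epithelium (-0.77). These were 1 of 10, 2 of 10, 1 of 6 and 1 of 9 tested receptors, beside 8.97%, 16.4%, 12.9% and 5.72% of all genes, and DESeq2 called *Bmpr1b* in the TM clusters and *Eng* in mural cells and none of the others, with no adjusted p for *Bmpr1b* in mural cells. The pathway genes called in the TM clusters were 3: *Bmpr1b*, *Id4* and *Fst*. With equal cell numbers per label 1 of these 3 was called, in TM7 alone 0 and in TM9 alone 3. TM8, the highest label of *Bmpr1b*, had 591, 612 and 155 cells. Of the SMADs that transmit the signal (*Smad1*, *Smad5*, *Smad9*, *Smad4*), 0 were called in any class by edgeR and 0 by DESeq2. An unadjusted p under 0.05 was found for 1, in limbal and corneal epithelium.

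Target genes of the pathway differed between genotypes in endothelium. Of 10 target genes 9 were tested, 5 were called higher and 1 lower, and the median log2 change was 0.74 against -0.02 over all genes tested. Of all genes tested 8.12% were called higher and 4.82% lower, and DESeq2 called 4 of the 9, with no adjusted p for *Atoh8*. *Id1*, a transcriptional inhibitor induced by BMPs, stood at 4.90, 5.64 and 8.95 UMIs per 10,000 (0.93). *Id3* stood at 16.4, 12.7 and 21.7 (0.75) and the feedback inhibitor *Smad7* at 3.55, 4.03 and 5.63 (0.74). *Id2* (0.57) and *Atoh8* (1.28) were the other 2 called higher. *Id4* went the other way, at 2.87, 2.66 and 1.40 (-0.82). *Id1*, *Id3*, *Id4* and *Smad7* were also called by DESeq2 and in male-typed cells, in which *Bmp4* itself was not higher. Label sizes differed: EC3 had 118, 118 and 58 cells, EC4 96, 107 and 87, and SC 46, 63 and 15. In EC3, its highest label in the controls, *Id4* stood at 4.80, 4.81 and 2.02. Fitted in EC3 alone, 4 of the 8 pathway genes called in endothelium were called. No draw to equal cell numbers was run for endothelium, and the part of label sizes in the result was not tested.

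In mural cells the same list had 4 genes lower and 1 higher. All 10 target genes were tested. The lower ones were *Id1* (-0.92), *Id2* (-0.82), *Id4* (-1.04) and *Msx1* (-0.83), and the higher one was *Bambi* (0.92), a decoy receptor. The list median was -0.04 and that of all genes -0.05, and of all genes 16.4% were called. DESeq2 called 4 of the 10, without *Msx1*. With equal cell numbers per label, 2 of the 11 pathway genes called in mural cells passed, *Fst* and *Fstl3*. In cluster 19 alone *Id1* was the one of the 11 that did (-0.94). In the TM clusters 1 of 10 tested target genes, *Id4*, was called lower, beside 8.97% of all genes, and DESeq2 called 0.

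**Figure D5:**
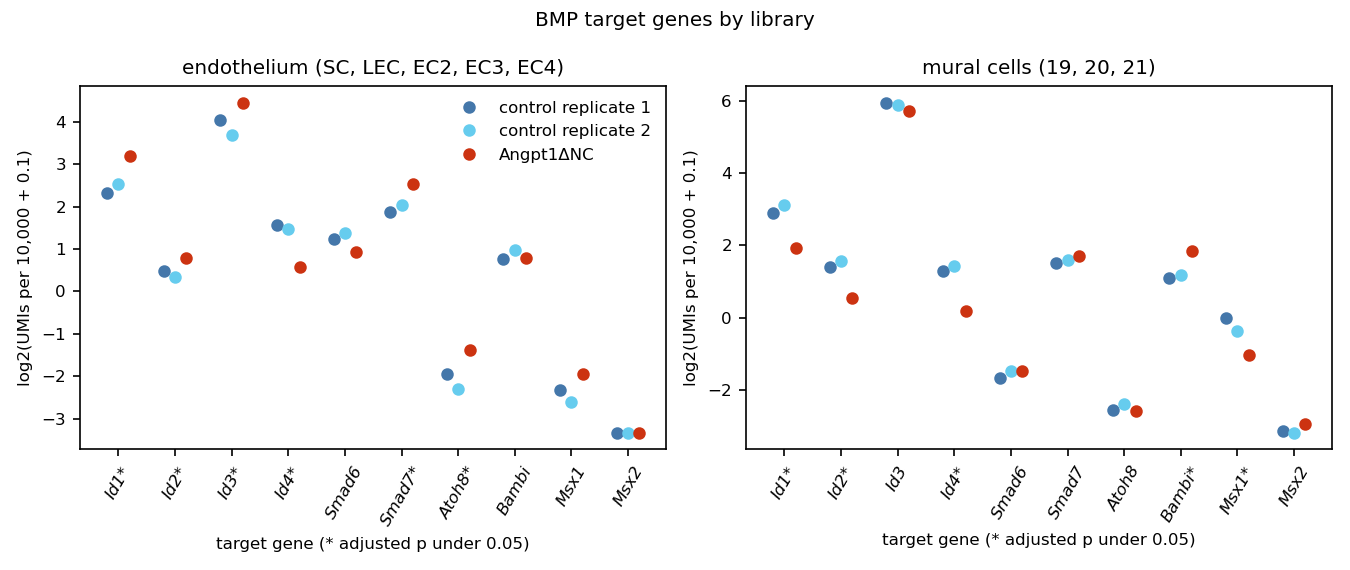
log2(UMIs per 10,000 + 0.1) of 10 BMP target genes in endothelium (left) and mural cells (right), 1 point per library; asterisks mark an adjusted p under 0.05 (edgeR). In endothelium *Id1*, *Id2*, *Id3*, *Smad7* and *Atoh8* are higher in *Angpt1*ΔNC than in both controls and *Id4* is lower, and in mural cells *Id1*, *Id2*, *Id4* and *Msx1* are lower and *Bambi* higher.

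Of 12 further antagonists and extracellular modulators, follistatin (*Fst*), which binds activins and BMPs, was lower in the TM clusters and in mural cells, at 2.89, 3.63 and 1.44 UMIs per 10,000 in the TM clusters (-1.18) and at -0.74 on the log2 scale in mural cells. In mural cells *Fstl3* (-0.88), *Nbl1* (-0.68) and *Sost* (-1.39) were lower as well. *Crim1* was higher in endothelium (0.53). These were 1 of 11 tested in the TM clusters, 4 of 11 in mural cells and 1 of 6 in endothelium, beside 8.97%, 16.4% and 12.9% of all genes, and DESeq2 called *Fst* in the TM clusters and none of the others. Of 10 other ligands, *Bmp3* was lower in limbal and corneal epithelium (-1.60), and 0 of that list were called by edgeR or DESeq2 in the other 3 classes in which any was tested (2 at an unadjusted p under 0.05 in the TM clusters, 1 in cluster 17 and 1 in mural cells). In ciliary epithelium 0 of 29 tested genes of these lists were called and in cluster 17 0 of 38, by edgeR and by DESeq2, with 7 and 6 at an unadjusted p under 0.05.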

How the data were processed

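Single-cell UMI counts of 2 control libraries and 1 *Angpt1*ΔNC library were used as deposited, with the cell label of each barcode from the authors' table. Per the labels and methods, the authors aligned reads to mm10 with Cell Ranger, for which the sources name different versions, removed low-quality cells and doublets (scDblFinder) and clustered integrated data in Seurat 3.1.3; the cells they kept were used, and no further doublet caller was run. The members and gene lists were chosen with earlier results of these data known, and 1 gene of these lists is not reported here. Genes were matched to GRCm38 positions for 30934 of 31053 identifiers.

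UMIs were summed per library and label. Genotypes were compared in 6 cell classes with edgeR 4.0.16 (TMM, filterByExpr, quasi-likelihood F-test, Benjamini-Hochberg over all genes of the class, adjusted p under 0.05), with no covariate and 1 residual degree of freedom. Fits of single labels with at least 50 cells in each library were added after the data were seen. Alternatives were RLE size factors, DESeq2 1.42.0, no filter, male-typed cells (a UMI of *Ddx3y*, *Eif2s3y*, *Kdm5d* or *Uty* and none of *Xist*), equal cell numbers and leaving out a control. Shares of cells have exact Clopper-Pearson 95% intervals. All members were named; pathway genes were named where called or by their highest label, and the 3 genes most like each member by Pearson r of log2(level + 0.1). On simulated data with 200 changed genes, 2-fold changes were recovered for 20.0% to 52.6% and 4-fold changes for 84.8% to 95.2% of genes over the 6 classes. Kept UMIs per library were 76981606, 80346829 and 66484181.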

Additional observations from a re-analysis of the deposited data

Results flagged for a closer look

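*Bmp2* and *Bmp4* had changes of opposite sign in different cell classes, each with an unadjusted p under 0.05 in its class by edgeR. The log2 change of *Bmp2* was 0.72 in limbal and corneal epithelium and -0.65 in endothelium, neither passing after adjustment. That of *Bmp4* was 0.79 in endothelium, 1.05 in ciliary epithelium and 2.33 in cluster 17, and -0.38 in the TM clusters, of which the endothelial value alone passed after adjustment. The differences between classes were not tested.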

How the results depend on the processing

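The directions of the 6 called changes held in every alternative run on the whole class, except *Bmp4* in endothelium, which reversed to -0.31 in male-typed cells. For *Nog* and *Sostdc1* in mural cells the male-typed alternative could not decide the direction. Cluster 19, which held nearly all of their counts, had 241, 361 and 2 male-typed cells. No paired analysis was possible because replicate numbers were given in accession order and the 2 groups share no labelled number. The members called became 0 (DESeq2) and 2 (male-typed cells) in the TM clusters, 0 in endothelium with DESeq2 and with male-typed cells, 2 without the filter in limbal and corneal epithelium and 2 in ciliary epithelium, and in cluster 17 0 with RLE factors, 3 with DESeq2, 0 without the filter and 3 in male-typed cells. All genes called changed to 629 (DESeq2) and 2441 (no filter) in the TM clusters, from 1251, and to 261 (DESeq2) in endothelium, from 1250. They changed to 434, 1814 and 465 (DESeq2, no filter, male-typed) in limbal and corneal epithelium, from 706, and to 45, 626 and 21 in ciliary epithelium, from 77. In cluster 17 they were 15 (RLE), 193 (DESeq2), 13 (no filter) and 443 (male-typed), from 33, and in mural cells 550 (DESeq2) and 914 (equal cell numbers), from 1898. The cause was not tested.

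Further reversals were of changes that were not called, or of sums against single labels. Without 1 control, *Bmp2* (-0.071 to 0.0018) and *Grem1* (-1.13 to 0.29) in the TM clusters, *Bmp4* (-0.015 to 0.47) and *Bmp7* (-0.13 to 0.13) in limbal and corneal epithelium, *Bmp7* (-0.26 to 0.86) and *Nog* (-1.48 to 1.21) in ciliary epithelium and *Bmp7* in cluster 17 (-1.91 to 3.00) changed sign. DESeq2 gave 4.79e-05 for *Bmp7* in limbal and corneal epithelium. Equal cell numbers gave 0.23 for *Grem1* in the TM clusters and -0.011 for *Bmp4* in mural cells, and male-typed cells -0.12 for *Bmp2* and -6.50 for *Grem1* in mural cells. Single labels gave, in TM7, 0.85 for *Bmp2*, -0.49 for *Bmp7*, -1.08 for *Bmper* and 0.54 for *Sostdc1*; in TM9, 0.59 for *Bmp4* and -1.13 for *Bmper*; in TM10, -2.67 for *Bmper*; in TM4, 0.56 for *Nog* and 0.21 for *Id4*; in cluster 4, -0.41 for *Bmp4*; and in cluster 21, -0.41 for *Bmp2* and 0.39 for *Fst*.

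As a mean over cells, control levels moved to 1.47 for *Bmp2* in cluster 7, 1.82 for *Bmp4* in RPE and 8.53 for *Nog* in cluster 19. Thinned to 1000 UMIs a cell, shares of control cells with a UMI were 10.7% for *Bmp2*, 15.9% for *Bmp4*, 6.85% for *Bmp6*, 5.52% for *Bmp7*, 53.8% for *Nog*, 8.72% for *Bmper* and 52.8% for *Sostdc1*, each in its highest label. With *Angpt1*ΔNC in place of the controls, *Bmp5* and *Ptx4* had a Pearson r of -0.227. Every other named gene also had a lower r, except *Rab3c* (0.94) and *Zic1* (0.91) with *Grem1* and *Itgb8* (0.82) with *Sostdc1*. Outside *Bmp5* the lowest were *Endou* (0.37) with *Bmp6*, *Amacr* (0.43) with *Bmp4*, *Dlg3* (0.45) with *Sostdc1* and *Rtn4rl1* (0.49) with *Nog*.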
